A study of Mus musculus with 8 samples.

Results

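The S100 genes encode small calcium-binding proteins, each with a pair of EF-hand loops, and 10 of them were followed in mouse liver: S100a1, S100a4, S100a6, S100a8, S100a9, S100a10, S100a11, S100a13, S100a14 and S100a16. They were taken by gene name from the deposited count table, in which they are 10 of 54232 genes and 10 of the 17 S100 genes listed. The libraries were made from total RNA of whole liver from mice 6 months old, 4 from Atp7b knockout (KO) mice and 4 from wild-type (WT) mice. Atp7b encodes the copper-transporting ATPase of hepatocytes that is defective in Wilson disease. The sources used here give neither the knockout allele nor the strain or sex of the mice. Nor do they say whether each library is a separate animal, and p-values therefore cover only the spread among the 8 libraries. Total counts were 14583961 to 18423836 in KO libraries and 9880253 to 27530506 in WT libraries.

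As background, S100 proteins mostly work as dimers that open a binding face when calcium enters the EF hands and then hold a partner protein. Inside cells the partners include annexins, myosin and ubiquitin ligase adaptors. Outside cells S100a8 and S100a9 form calprotectin, a neutrophil and monocyte protein that withholds zinc and manganese from microbes and is sensed through TLR4 and RAGE. Copper and zinc also bind several S100 proteins, and S100a13 takes part in the copper-dependent release of FGF1. In liver, S100a6 and S100a11 are known from bile duct and stromal cells, and S100a8 and S100a9 from immune cells.

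S100 RNA of KO livers had a different make-up from that of WT livers. S100a11 was 43.5-fold higher in KO and moved from a minor to a leading transcript of the family, and S100a8, S100a9, S100a6 and S100a10 were 2.04 to 5.09-fold higher. S100a1, the leading S100 transcript of WT liver per length, was 3.22-fold lower in KO, and its neighbour S100a13 was 2.08-fold lower. S100a16 was not called. S100a14 and S100a4 had too few counts to be tested, with 35 and 4 counts over the KO libraries against 2 and 0 over the WT libraries. Of the 10 genes, 5 were therefore called higher, 2 lower, 1 was not called and 2 were not tested, by edgeR's quasi-likelihood test at an adjusted p under 0.05. Of the 15811 genes in the test as a whole, 17.6% rose and 12.5% fell, 30% in all, and the groups did not overlap in 32.1% of genes. A gene near the floor in WT could enter the test through its KO counts alone, which favours a call higher. Counts of calls, here and below, carry that limit.

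WT replicate 3 stood apart from the other libraries. The second principal component, with 19.0% of the variance, placed it at -92.9, and its correlation with other WT libraries was 0.925 to 0.944, against 0.975 to 0.986 among those. Atp7b itself read 8.76, 8.91, 6.50 and 7.15 CPM (reads per 1000000 of the scaled library total) in KO replicates 1 to 4, against 28.9, 32.0, 9.63 and 27.4 CPM in WT replicates 1 to 4, with WT replicate 3 the nearest to KO. The fold change of each tested S100 gene, and the levels and ratios its WT values enter, are therefore also given without that library. Over the whole test, the median log2 fold change was -0.05, and 0.37 when libraries were scaled by their totals only, so small changes are defined only relative to such a shift.

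All 10 genes lie on chromosome 3 (mm10). S100a1, S100a13, S100a14, S100a16, S100a4, S100a6, S100a8 and S100a9 span 184.7 kb, and S100a11 and S100a10 lie 2.82 Mb further on, 28.8 kb apart. By the GENCODE annotation, S100a1 and S100a13 are read in opposite directions from starts 43 bp apart. The gap between S100a8 and S100a9 is 22.6 kb. Promoter windows of 300 bases, from 250 before to 50 after a start site, were found for 8 of the 10 genes in RefSeq (GRCm38.p6). They were searched on both strands for the TATA box (TATAAA), AP-1 (TGANTCA), C/EBP (TTGCNNAA), the metal response element (TGCACNC, or else TGCGCNC), the antioxidant response element (TGACNNNGC), TEAD (CATTCC), the GC box (GGGCGG) and STAT (TTCNNNGAA), and matches are in capitals. The 4 windows below belong to the gene with the largest change, to the calprotectin pair and to the start region that S100a1 shares with S100a13.

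S100a11, chr3:93520246-93520545, plus strand: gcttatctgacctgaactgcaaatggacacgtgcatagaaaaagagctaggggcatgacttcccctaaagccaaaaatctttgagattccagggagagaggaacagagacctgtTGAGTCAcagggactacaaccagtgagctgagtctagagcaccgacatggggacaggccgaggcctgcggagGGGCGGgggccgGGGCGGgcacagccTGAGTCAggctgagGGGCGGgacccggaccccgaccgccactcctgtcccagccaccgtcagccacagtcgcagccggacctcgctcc
S100a8, chr3:90668821-90669120, plus strand: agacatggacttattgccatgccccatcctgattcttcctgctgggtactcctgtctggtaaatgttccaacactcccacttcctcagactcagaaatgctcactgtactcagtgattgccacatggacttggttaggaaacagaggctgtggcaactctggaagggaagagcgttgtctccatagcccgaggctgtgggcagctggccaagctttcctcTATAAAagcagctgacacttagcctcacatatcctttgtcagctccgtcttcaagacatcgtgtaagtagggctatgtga
S100a9, chr3:90695672-90695971, minus strand: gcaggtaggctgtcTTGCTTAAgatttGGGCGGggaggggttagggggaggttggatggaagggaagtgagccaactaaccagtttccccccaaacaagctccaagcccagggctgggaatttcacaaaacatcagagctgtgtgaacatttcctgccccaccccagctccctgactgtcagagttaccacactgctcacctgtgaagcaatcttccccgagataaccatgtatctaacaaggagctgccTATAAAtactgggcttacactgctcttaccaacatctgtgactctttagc
S100a1, chr3:90514281-90514580, minus strand: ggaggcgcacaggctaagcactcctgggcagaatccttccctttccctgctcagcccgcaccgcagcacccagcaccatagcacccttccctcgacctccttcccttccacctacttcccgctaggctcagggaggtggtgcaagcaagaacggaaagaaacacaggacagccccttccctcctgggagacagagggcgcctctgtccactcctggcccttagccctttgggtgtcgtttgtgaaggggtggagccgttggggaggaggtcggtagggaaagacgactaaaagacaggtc

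The S100a11 window held AP-1 letters at -136 and -38 and GC box letters at -64, -52 and -24, counted from the RefSeq start. Among 32851 windows of that length in the same table, 7.81% held AP-1 letters and 35.7% a GC box. S100a8 held TATAAA at -30, while S100a9 held it at 1, just past its annotated start, with C/EBP letters at -236 and a GC box at -223. TATAAA was in 13.6% of all windows and the C/EBP letters in 10.8%. The windows of S100a1, S100a13 and S100a6 held none of the 8 motifs, and those of S100a1 and S100a13 share 204 bases. The metal response element, found in 25.7% of all windows, had no match in the windows printed here, but a window of S100a16 held it at -179. These are letter matches only, and factor binding was not measured.

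S100a8 and S100a9, the chains of calprotectin, were higher in KO at low levels. S100a8 read 2.10, 2.89, 4.57 and 4.51 CPM in KO replicates 1 to 4 and 0.704, 0.614, 1.70 and 0.214 CPM in WT replicates 1 to 4. Every KO library lay above every WT library, WT replicate 3 being the nearest. The means were 3.52 ± 1.23 CPM in KO and 0.808 ± 0.631 CPM in WT (SD, n = 4 each), a log2 fold change of 2.35 ± 0.51 (SE; adjusted p = 0.00544, edgeR's quasi-likelihood test). Without WT replicate 3 it was 2.88.

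S100a9 read 3.11, 5.33, 7.62 and 8.68 CPM in KO replicates 1 to 4, against 0.704, 0.860, 3.68 and 0.858 CPM in WT replicates 1 to 4. The groups overlapped, because KO replicate 1 lay below WT replicate 3. S100a9 averaged 6.19 ± 2.48 CPM in KO and 1.53 ± 1.44 CPM in WT (SD, n = 4 each), and its log2 fold change was 2.20 ± 0.53 (SE; 4.58-fold, adjusted p = 0.00971). It was 2.90 without WT replicate 3. Within libraries the log2 ratio of S100a8 to S100a9 counts was -0.78 ± 0.17 in KO and -0.86 ± 0.82 in WT (SD, n = 4 each), a difference of 0.08 that a two-sided exact permutation test did not separate from 0 (p = 0.857, adjusted p = 0.857 over 3 ratios), and 0.0094 without WT replicate 3. WT counts were few, so this ratio is poorly measured there.

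Markers of myeloid cells were read in the same libraries, and their counts of calls stand beside 17.6% of all genes tested called higher. Of 16 neutrophil markers, 15 were in the table, 5 could be tested and 2 were called higher. These were Prtn3, a granule protease, at a log2 fold change of 5.06, and Lcn2, an iron-siderophore binder that other liver cells also make, at 3.35. Prtn3 had 703 counts over the KO libraries and 15 over the WT libraries. It passed the low-count filter through KO counts alone, which favours a call higher. Ly6g, a defining neutrophil marker, had 9 counts over the KO libraries and 0 over the WT libraries, and Mpo had 4 and 1. Other untested markers had more, with Ltf at 51 and 1, Cxcr2 at 44 and 6 and Mmp8 at 26 and 2. The summed neutrophil markers ranged from 57.4 to 109 CPM in KO and from 7.50 to 17.5 CPM in WT, and Lcn2 alone averaged 65.4 CPM in KO and 6.31 CPM in WT. WT replicate 3 had the lowest of these sums and the lowest Lcn2, at 0.708 CPM against 12.2, 8.73 and 3.56 CPM in WT replicates 1, 2 and 4.

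Of 10 monocyte markers, 6 of 8 tested were called higher, among them Ccr2, the receptor that brings monocytes into tissue, at 2.18. Their sum ranged from 188 to 323 CPM in KO and from 41.4 to 216 CPM in WT. Lyz2, a lysozyme of monocytes and macrophages, carried most of the sum, at 210 ± 67.9 CPM in KO and 74.2 ± 76.0 CPM in WT (SD, n = 4 each), and was not called (adjusted p = 0.0637). WT replicate 3 gave the 216 CPM, of which 188 CPM were Lyz2, and the other WT libraries 41.4 to 50.6 CPM.

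Of 12 macrophage markers, 4 were called higher, with sums of 277, 450, 674 and 825 CPM in KO replicates 1 to 4 and 163, 300, 475 and 314 CPM in WT replicates 1 to 4. WT replicate 3, the WT library highest in S100a9, was thus highest among WT libraries in the monocyte and macrophage sums and lowest in the neutrophil sum. The neutrophil sums of the WT libraries had the order of Lcn2. Of the other tested neutrophil markers, Csf3r and Prtn3 were lowest and Fpr1 and Fpr2 highest in WT replicate 3 among WT libraries. The part of myeloid cells in the S100a8 and S100a9 result was not tested. In whole tissue, a change in the number of cells of a type and a change in RNA per cell cannot be told apart, here and for every gene that follows.

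**Figure D1:**
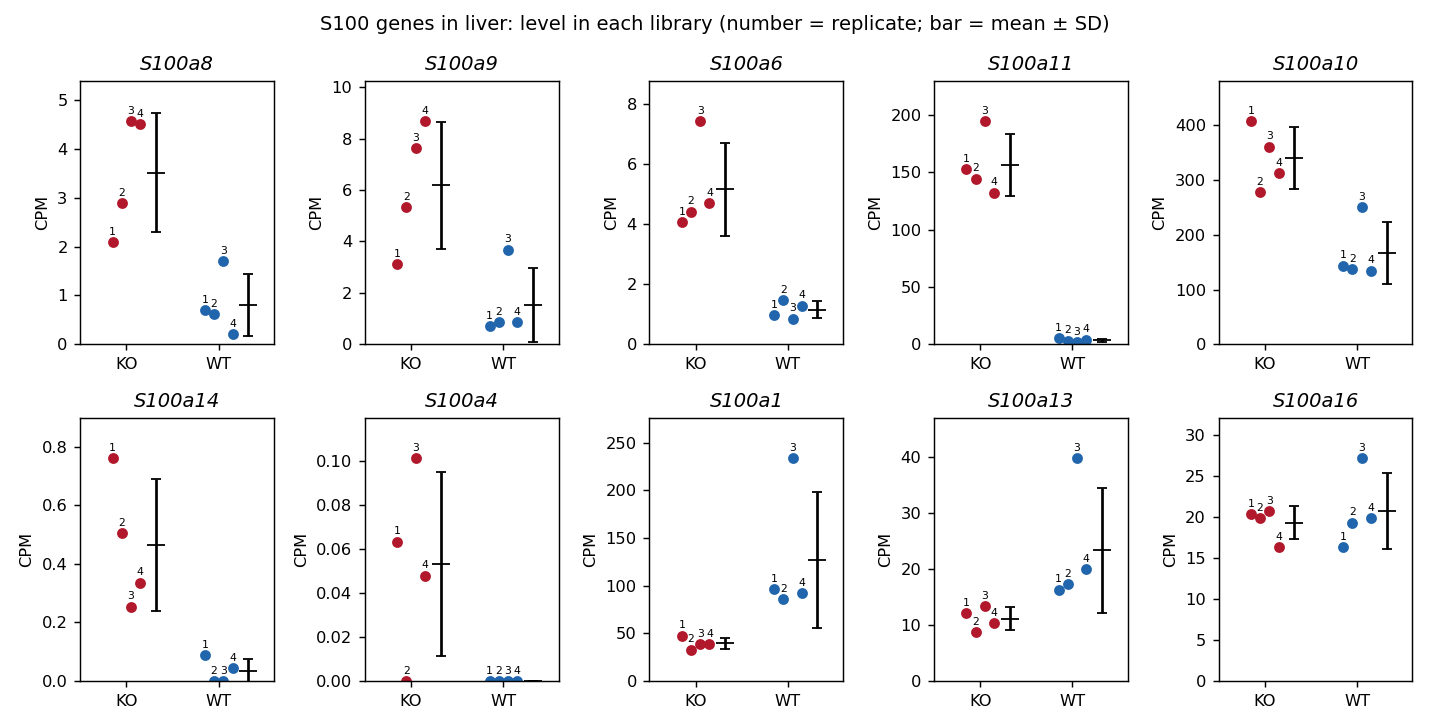
Level of each of the 10 S100 genes in CPM, with its own linear axis from 0, in KO (red, left) and WT (blue, right) libraries. Points carry the replicate number and bars are mean ± SD of 4 libraries. S100a9 in KO replicate 1, at 3.11 CPM, lies below WT replicate 3, at 3.68 CPM, whereas S100a8, S100a6, S100a11, S100a10, S100a1 and S100a13 do not overlap between the groups.

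S100a11, which binds annexin A1 and is found in many epithelia, showed the largest log2 fold change of the 8 genes tested. It read 153, 145, 195 and 132 CPM in KO replicates 1 to 4, and 5.02, 3.13, 1.84 and 4.07 CPM in WT replicates 1 to 4. The lowest KO library lay far above the highest WT library, and WT replicate 3 was the lowest of all. S100a11 averaged 156 ± 27.1 CPM in KO and 3.52 ± 1.36 CPM in WT (SD, n = 4 each), a log2 fold change of 5.44 ± 0.30 (SE; adjusted p = 1.81e-06). It was 5.26 without WT replicate 3.

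S100a10, also called p11, has EF hands that do not bind calcium and forms a tetramer with annexin A2 at the membrane, where it holds plasminogen and its activator. S100a10 read 408, 278, 361 and 313 CPM in KO replicates 1 to 4 and 144, 137, 251 and 135 CPM in WT replicates 1 to 4. KO replicate 2 and WT replicate 3 came nearest to each other without crossing. The means were 340 ± 56.8 CPM in KO and 167 ± 56.2 CPM in WT (SD, n = 4 each), a log2 fold change of 1.03 ± 0.24 (SE; adjusted p = 0.00857). Leaving out WT replicate 3 gave 1.28.

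The annexin partners of these proteins rose as well, by other amounts. Anxa2 read 143, 189, 224 and 145 CPM in KO replicates 1 to 4, against 19.5, 21.6, 9.06 and 19.6 CPM in WT replicates 1 to 4, a log2 fold change of 3.32 ± 0.29 (SE; adjusted p = 1.98e-05). Anxa1 averaged 12.1 ± 1.01 CPM in KO and 7.26 ± 2.53 CPM in WT (SD, n = 4 each), a log2 fold change of 0.76 ± 0.23 (SE; adjusted p = 0.0292). The Anxa1 call was lost in 8 of 18 alternatives, 7 of them fits without 1 library, at an adjusted p of up to 0.0818. Every such fit but the one without WT replicate 3, where the log2 fold change was 1.002, lost it.

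Ratios within a library do not depend on its scaling, and they separated the groups for both annexin pairs. The log2 ratio of S100a10 to Anxa2 counts was 0.97 ± 0.43 in KO and 3.28 ± 1.01 in WT (SD, n = 4 each), a difference of -2.31, and -1.80 without WT replicate 3. For S100a11 over Anxa1 it was 3.67 ± 0.13 in KO and -1.07 ± 1.01 in WT (SD, n = 4 each), a difference of 4.74, and 4.25 without WT replicate 3. Each gave p = 0.0286 in a two-sided exact permutation test, the smallest p that 4 against 4 libraries allow, and adjusted p = 0.0429 over 3 ratios. Counts of S100a10 exceeded those of Anxa2 in every library, by less in KO than in WT. Counts of S100a11 exceeded those of Anxa1 in every KO library and lay below them in every WT library. As counts are not scaled to gene length, they do not rank the genes of a pair by level.

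**Figure D2:**
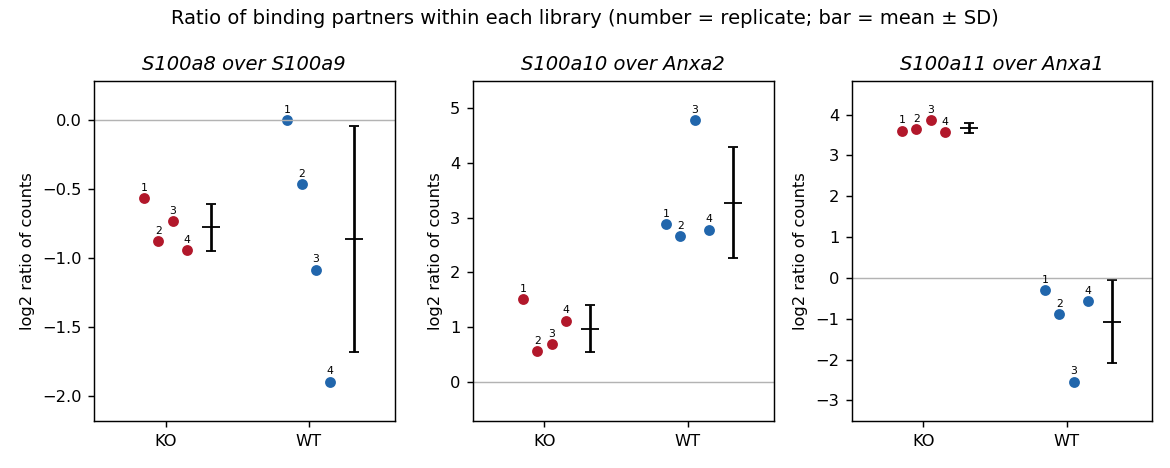
Log2 ratio of read counts (each plus 0.5) of S100a8 over S100a9, S100a10 over Anxa2 and S100a11 over Anxa1, in KO (red, left) and WT (blue, right) libraries, with replicate numbers and mean ± SD. The 2 annexin ratios do not overlap between the groups, with WT replicate 3 at 4.78 the highest S100a10 over Anxa2 ratio, and the S100a8 over S100a9 ratio overlaps.

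Of 12 annexins, 10 were tested and 6 were called higher (Anxa1, Anxa2, Anxa3, Anxa4, Anxa5 and Anxa13). Their median log2 fold change was 0.86, beside -0.05 for all genes tested, of which 17.6% were called higher. Anxa5, which binds phosphatidylserine, averaged 243 ± 59.3 CPM in KO and 72.5 ± 27.9 CPM in WT (SD, n = 4 each), a log2 fold change of 1.74 ± 0.33 (SE; adjusted p = 0.00251). Anxa6 and Anxa11, which bind other S100 proteins, read 0.10 and -0.13 and were not called.

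S100a6, or calcyclin, is a protein of proliferating and stromal cells that binds the ubiquitin ligase adaptor Cacybp. It read 4.06, 4.41, 7.42 and 4.70 CPM in KO replicates 1 to 4 and 0.968, 1.47, 0.849 and 1.29 CPM in WT replicates 1 to 4. KO replicate 3 was the highest library, and the lowest KO library lay well above the highest WT library. The means were 5.15 ± 1.54 CPM in KO and 1.14 ± 0.287 CPM in WT (SD, n = 4 each), a log2 fold change of 2.12 ± 0.29 (SE; 4.34-fold, adjusted p = 3.34e-04). It changed little without WT replicate 3, at 2.01. Cacybp, the partner, was not called, at -0.34 ± 0.34 (SE; adjusted p = 0.5002).

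S100a4, a myosin-binding protein of fibroblasts, macrophages and other motile cells, was barely read. Its counts were 1, 0, 2 and 1 in KO replicates 1 to 4, and it had no count in any WT library. Since 3 counts over the WT group correspond to 0.0517 CPM, no fold is given and a difference was not detectable at this depth. Without a filter on low counts its adjusted p was 0.214. The annotation shares 51.7% of its exon bases with another gene on the same strand, which had no count in any library, and how reads in shared bases were counted is not stated in the labels.

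S100a14, an epithelial member, had 12, 11, 5 and 7 counts in KO replicates 1 to 4 and 1, 0, 0 and 1 counts in WT replicates 1 to 4. Every KO library was above every WT library. The ratio of summed CPM was 13.01, with a 95% counting interval of 3.34 to 112 that covers counting error only. It did not pass the filter on low counts. In a fit with no filter, its log2 fold change was 3.47 with adjusted p = 0.00135.

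S100a16, which is expressed widely and can pair with S100a14, was read in every library. It read 20.3, 19.8, 20.7 and 16.3 CPM in KO replicates 1 to 4, against 16.3, 19.3, 27.2 and 19.9 CPM in WT replicates 1 to 4. The groups overlapped throughout. Its log2 fold change was -0.09 ± 0.19 (SE; adjusted p = 0.750), and it turned to 0.04 without WT replicate 3 and to 0.36 with library totals only.

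Markers of bile duct and stromal cells were higher in the same libraries as S100a11, S100a10, S100a6 and S100a14. Of 14 cholangiocyte markers, 12 of 13 tested were called higher, and their sum ranged from 446 to 1075 CPM in KO and from 43.6 to 98.1 CPM in WT. Spp1, osteopontin, which other cells also make, carried most of that sum, at 772 ± 259 CPM in KO and 42.9 ± 16.8 CPM in WT (SD, n = 4 each). Epcam, an epithelial adhesion molecule, had a log2 fold change of 4.96. Within the KO group that sum, like Spp1, was highest in KO replicate 2 and lowest in KO replicate 4. S100a11 was also lowest in KO replicate 4. The lowest library was KO replicate 2 for S100a10, KO replicate 1 for S100a6 and, at 5 counts, KO replicate 3 for S100a14. With 4 libraries, these orders cannot link the genes to a cell type or separate them from it. Of 12 stellate cell and fibroblast markers, 7 were called higher, with a sum of 611 to 867 CPM in KO and 266 to 472 CPM in WT. Over all genes tested, 17.6% were called higher. Among the cholangiocyte markers, Cldn4, Ggt1, Cdh6, Cftr and Cldn7 had 1, 2, 14, 15 and 18 counts over the WT libraries. Such genes passed the low-count filter through their KO counts, which favours a call higher. The 12 calls can therefore not be weighed against that share. The part of bile duct and stromal cells in the S100 results was not tested.

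S100a1, best known from heart and skeletal muscle, where it binds the ryanodine receptor, was lower in KO. S100a1 read 47.6, 32.9, 38.3 and 39.0 CPM in KO replicates 1 to 4, against 96.3, 85.8, 234 and 92.4 CPM in WT replicates 1 to 4. No library crossed between the groups, and WT replicate 3 stood far above the rest. The means were 39.5 ± 6.07 CPM in KO and 127 ± 71.4 CPM in WT (SD, n = 4 each), a log2 fold change of -1.69 ± 0.32 (SE; adjusted p = 0.00286). Without WT replicate 3 it was -1.23 (adjusted p = 2.42e-05), and with library totals only -1.20 (adjusted p = 0.00356).

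S100a13, whose start lies beside that of S100a1, was lower in KO too. It read 12.1, 8.68, 13.3 and 10.4 CPM in KO replicates 1 to 4 and 16.3, 17.2, 39.8 and 19.9 CPM in WT replicates 1 to 4. KO replicate 3 and WT replicate 1 came closest, and WT replicate 3 was again the highest. S100a13 averaged 11.1 ± 2.02 CPM in KO and 23.3 ± 11.1 CPM in WT (SD, n = 4 each), a log2 fold change of -1.06 ± 0.29 (SE; adjusted p = 0.0201). Without WT replicate 3 it was -0.70 (adjusted p = 0.00494). It missed the threshold when KO replicate 2 was left out (-0.96, adjusted p = 0.0655), when KO replicate 4 was (-1.03, adjusted p = 0.0541) and with library totals only (-0.58, adjusted p = 0.0910).

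Fgf1 and Syt1, the growth factor and the synaptotagmin that S100a13 joins in a release complex, were called lower beside it, and they are named here after their values were seen. Fgf1 averaged 45.6 ± 4.43 CPM in KO and 69.6 ± 14.4 CPM in WT (SD, n = 4 each), a log2 fold change of -0.61 ± 0.19 (SE; adjusted p = 0.0294). Syt1 averaged 5.95 ± 1.19 CPM in KO and 11.3 ± 4.90 CPM in WT (SD, n = 4 each), a log2 fold change of -0.92 ± 0.30 (SE; adjusted p = 0.0427). The groups overlapped for both genes, the Fgf1 call was lost in 11 of 18 alternatives and the Syt1 call in 9 of 18, with adjusted p of up to 0.515 and 0.228. Both are therefore near the threshold.

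Hepatocyte markers ran lower in the same libraries. Of 12 such markers, 4 were called lower, beside 12.5% of all genes tested. The sum of the 12 was 52371 to 74493 CPM in KO and 78999 to 136754 CPM in WT. Alb, albumin, carried most of the sum, at 39928 ± 7474 CPM in KO and 62388 ± 20846 CPM in WT (SD, n = 4 each). Its groups overlapped and it was not called (adjusted p = 0.117). WT replicate 3, with the highest S100a1 and S100a13, had a sum of 85394 CPM, inside the range of the other WT libraries. Among WT libraries it was lowest in Tat, Pck1, Cyp2e1, Ttr, Cps1 and Serpina1a, and highest in Apob, Asgr1 and Fgb. With library totals only 2 of the 12 were called lower, with DESeq2 7, and with quality weights or without WT replicate 3 8. Their part in the S100a1 and S100a13 result was not tested.

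**Figure D3:**
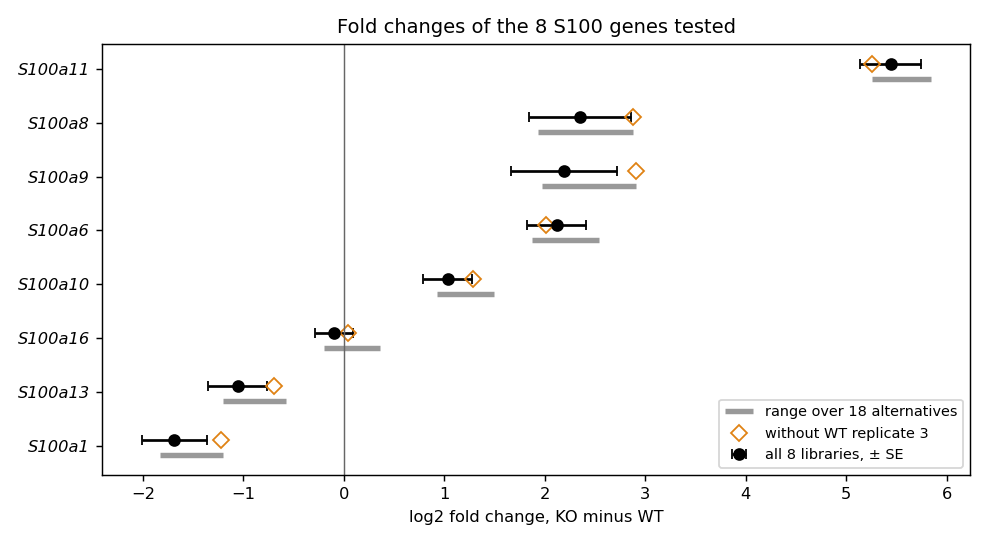
Log2 fold change (KO minus WT) of the 8 S100 genes tested, with its SE (black), the value without WT replicate 3 (open diamond) and the range over 18 alternatives (grey bar). S100a11 stands at 5.44 and S100a1 at -1.69, and the range of S100a16 alone crosses 0.

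Levels between genes were compared per length, as CPM per kb of exon. Length is that of all annotated exons of a gene merged, and the order and shares depend on this choice. In CPM without length, S100a10 led in both groups. It averaged 340 CPM in KO, before S100a11 at 156 CPM, and 167 CPM in WT, before S100a1 at 127 CPM. In KO the order began with S100a11 (305 ± 53.0) and S100a10 (281 ± 46.8), which did not differ beyond their spread, S100a11 being higher in KO replicates 2, 3 and 4 but not in KO replicate 1. S100a1 (56.9 ± 8.75), S100a13 (15.5 ± 2.82), S100a16 (11.9 ± 1.27), S100a9 (11.8 ± 4.75), S100a8 (5.07 ± 1.77) and S100a6 (3.77 ± 1.12) followed (SD, n = 4 for each), and S100a14 and S100a4 stood at 0.269 and 0.0912. S100a13, S100a16 and S100a9 were within their spread of one another.

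In WT the order was S100a1 (183 ± 103), S100a10 (137 ± 46.4), S100a13 (32.6 ± 15.5), S100a16 (12.8 ± 2.86), S100a11 (6.88 ± 2.65), S100a9 (2.92 ± 2.76), S100a8 (1.16 ± 0.909) and S100a6 (0.837 ± 0.210) CPM per kb (SD, n = 4 for each). S100a1 was above S100a10 in every WT library, although their SDs overlap because WT replicate 3 was high in both. S100a14 was at 0.0189 and S100a4 at 0. S100a11 thus led the order in KO and stood below S100a16 in WT. Without WT replicate 3, S100a1 was at 132 ± 7.65, S100a10 at 114 ± 4.01, S100a13 at 24.9 ± 2.63, S100a16 at 11.4 ± 1.19, S100a11 at 7.97 ± 1.84 and S100a9 at 1.55 ± 0.171 CPM per kb in WT (SD, n = 3 for each), the same order, while S100a6 (0.909 ± 0.187) and S100a8 (0.736 ± 0.376) changed places within their spread.

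As shares of the summed level of the 10 genes, S100a11 made up 44.1 ± 3.98% in KO and 2.17 ± 1.15% in WT, and S100a1 made up 8.26 ± 1.04% in KO and 47.1 ± 4.40% in WT (SD, n = 4 each). S100a10 made up 40.5 ± 3.47% in KO and 37.4 ± 3.22% in WT, and S100a13 made up 2.24 ± 0.1502% in KO and 8.57 ± 0.803% in WT. WT replicate 3 had the highest S100a1 share, 53.5%, and the lowest S100a11 share, 0.571%. The summed level was 691 ± 92.6 CPM per kb in KO and 378 ± 169 CPM per kb in WT, where WT replicate 3 reached 630 and lay within the KO range. Without it, the WT sum was 294 ± 10.5 CPM per kb (SD, n = 3), and S100a1 made up 44.9%, S100a10 38.9%, S100a13 8.48% and S100a11 2.70% of it.

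**Figure D4:**
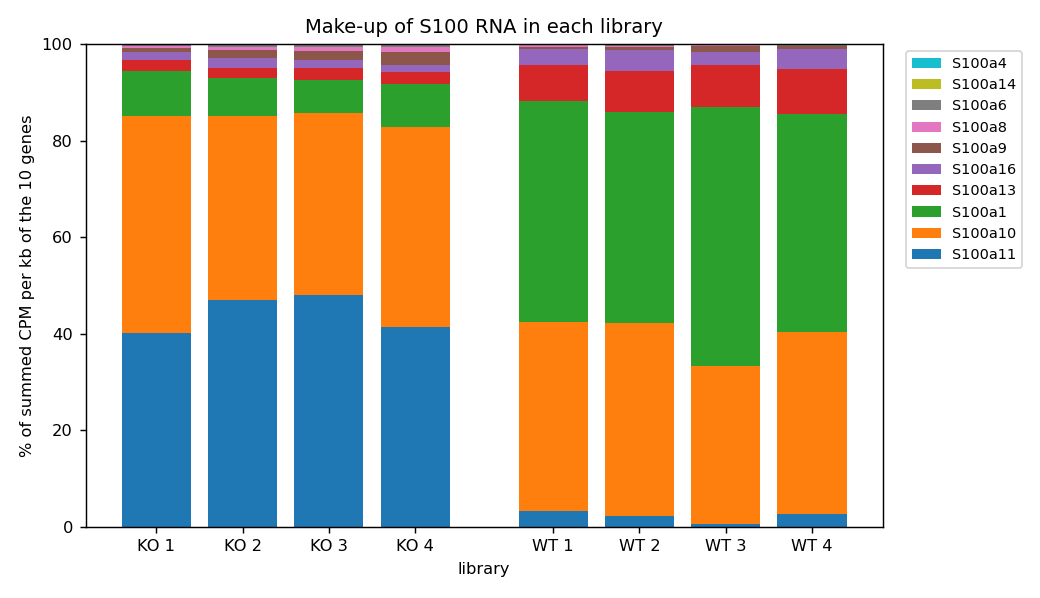
Share of each of the 10 S100 genes in their summed level (CPM per kb of exon, in percent) for KO libraries (left) and WT libraries (right). S100a11 (blue) makes up 44.1% on average in KO and 2.17% in WT, and S100a1 (green) 8.26% in KO and 47.1% in WT, in WT replicate 3 as in the other WT libraries.

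The library names hold numbers that fall into 3 ranges, each with KO and WT libraries, and the labels do not call these batches. Within the ranges, 7, 8 and 8 of the 8 tested genes went the same way as over all libraries, S100a16 being the exception. S100a11 differed by 4.86, 6.64 and 5.16 on the log2 scale and S100a1 by -1.28, -2.61 and -1.19. The middle value of each compares KO replicate 3 with WT replicate 3 alone.

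Of 21 receptors and signalling genes for extracellular S100 proteins, 20 were tested, 3 were called higher and 3 lower, a share at the 30% of all genes, with a median log2 fold change of 0.07. The split depended on the scaling, with 8 higher and 0 lower by library totals only and 7 and 5 with quality weights. Cd14, the TLR4 co-receptor, was higher by 2.57 ± 0.33 (SE; adjusted p = 2.24e-04), Emb, a receptor of S100a9, by 2.89 ± 0.39 (SE; adjusted p = 3.05e-04) and Alcam, an adhesion molecule, by 1.34 ± 0.20 (SE; adjusted p = 6.41e-04). The adaptor Myd88 was lower, at -0.81 ± 0.21 (SE; adjusted p = 0.0135), as were Irak1 and Nfkbia. Tlr4 was not called (0.70, adjusted p = 0.184), and Ager, which encodes RAGE, had 33 counts over the KO and 16 over the WT libraries and was not tested.

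Calprotectin also carries arachidonate to the phagocyte NADPH oxidase. Of its 6 genes, 3 were called higher, beside 17.6% of all genes tested. Cybb, the catalytic subunit, read 18.5, 21.8, 27.4 and 41.6 CPM in KO replicates 1 to 4, against 4.49, 9.46, 9.77 and 10.6 CPM in WT replicates 1 to 4, a log2 fold change of 1.67 ± 0.32 (SE; adjusted p = 0.00272). Cyba, its membrane partner, was higher by 1.44 ± 0.29 (SE; adjusted p = 0.00366). With DESeq2 and with upper-quartile factors, 5 of the 6 were called higher, and with library totals only all 6.

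Of 22 names listed as intracellular S100 partners, 20 were in the table. Smarca3, another name of Hltf, and Septin2 were not found by name. Of these partners, 18 were tested, 5 were called higher and 3 lower, with a median of 0.15. Calls in either direction made up 30% of all genes. Over the alternatives, 3 to 7 partners were higher and 0 to 4 lower. Plat, a plasminogen activator, was higher by 3.02 ± 0.37 (SE; adjusted p = 1.70e-04) and Hltf by 1.35 ± 0.27 (SE; adjusted p = 0.00351). Plg, plasminogen itself, was not called, at -0.48 ± 0.17 (SE; adjusted p = 0.0606). Dlc1, a protein that S100a10 binds, was lower, at -0.84 ± 0.20 (SE; adjusted p = 0.0104), a call lost with library totals only (adjusted p = 0.231). Myh9, the non-muscle myosin bound by S100a4, was not called, at 0.24 ± 0.45 (SE; adjusted p = 0.726). Among 14 tested EF-hand proteins outside the family, 4 were called higher and 1 lower, near the share of all genes, with a median of 0.38, and with library totals only 8 and 0. Calml4, a calmodulin-like light chain of brush border myosin, was higher by 4.31 ± 0.32 (SE; adjusted p = 6.34e-06) and Pls1, an actin bundler of the brush border, by 4.98 ± 0.34 (SE; adjusted p = 4.55e-06).

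Of 31 annotated genes within 100 kb of the 10 on chromosome 3, 9 were tested, 2 were called higher and 1 lower, a share near the 30% of all genes. The lower count was 0 with library totals only or upper-quartile factors and 4 with quality weights. Both higher genes lie beside S100a11 and encode hair follicle proteins with S100-like EF hands. Tchh averaged 3.84 ± 0.823 CPM in KO and 0.592 ± 0.422 CPM in WT (SD, n = 4 each), a log2 fold change of 2.57 ± 0.45 (SE; adjusted p = 0.00161). Tchhl1 had 292 counts over the KO libraries and 0 over the WT libraries. It passed the low-count filter through KO counts alone, which favours a call higher. Beside S100a1, Npr1, a natriuretic peptide receptor, was called lower, at -0.89 ± 0.26 (SE; adjusted p = 0.0267), a call lost in 9 of 18 alternatives, while Ints3, Ilf2, Snapin and Chtop were not called.

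**Figure D5:**
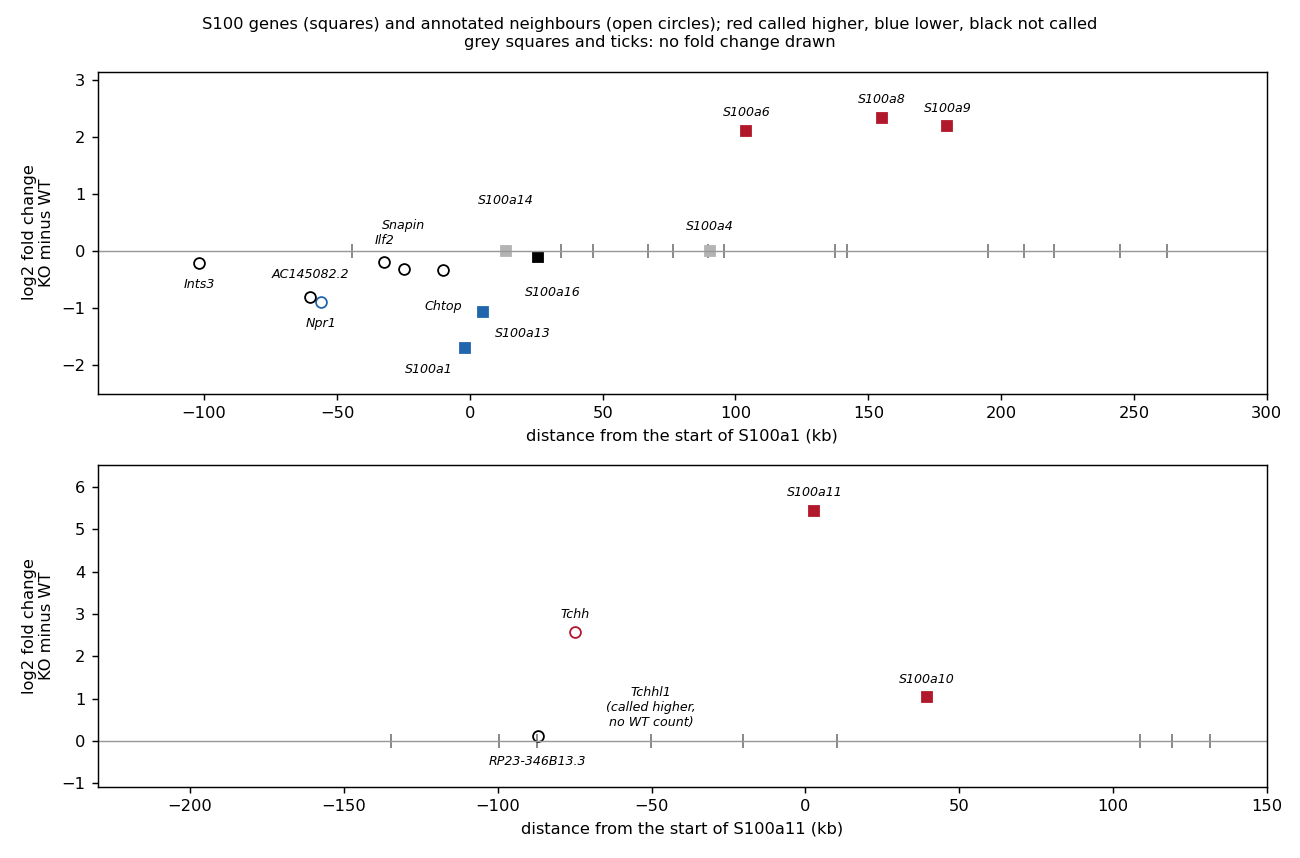
Log2 fold change (KO minus WT) of S100 genes (squares) and annotated neighbours (open circles) by distance in kb from the start of S100a1 (top) and of S100a11 (bottom). Red genes were called higher, blue lower and black not called, and grey marks carry no fold change. S100a1 and S100a13 lie at -1.69 and -1.06 at one end of the cluster, and S100a6, S100a8 and S100a9 between 2.12 and 2.35 at the other.

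The expression profiles most like those of the S100 genes were sought among 14414 genes averaging at least 1 CPM, by the root mean square (RMS) difference of centred log2 CPM over the 8 libraries. S100a1 was nearest to Dusp28 (RMS 0.13), a phosphatase gene, and Cdo1 (0.14), the cysteine dioxygenase of hepatocytes. S100a9 was nearest to Ifi27l2a (0.27), an interferon-induced gene, and Lyz2 (0.28), the lysozyme of macrophages, and S100a8 to Casp4 (0.33), an inflammatory caspase. S100a11 was nearest to Epdr1 (0.31) and to the mitotic genes Ckap2 (0.33) and Oip5 (0.34), S100a6 to the kinase gene Dyrk3 (0.18), and S100a10 to a clone-named gene (0.11) and Lect2 (0.12), a secreted hepatocyte protein. S100a13 was nearest to Zbtb44 (0.10) and S100a16 to Twsg1 (0.08). With libraries of 2 groups, a small RMS mainly requires a similar difference between KO and WT. The log2 fold changes of Epdr1, Ckap2 and Oip5 were 6.73, 5.62 and 5.68. Shared regulation or a shared cell type was not tested.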

How the data were processed

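Liver RNA was measured by RNA-seq in 4 KO and 4 WT libraries. The authors deposited raw counts of reads for each gene, as whole numbers. The submitters' processing notes name FastQC, cutadapt, STAR and mm10, without versions. No source used here names the counting program or the strand setting, so overlapping and antisense genes cannot be separated.

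Counts were filtered with filterByExpr, scaled with TMM factors and tested by quasi-likelihood in edgeR (version 4.0.16, limma 3.58.1, R 4.3.3), with Benjamini-Hochberg adjustment over all 15811 genes tested and calls at an adjusted p under 0.05. CPM are read counts divided by TMM-scaled totals, per 1000000 reads. Exon lengths, loci and neighbours came from GENCODE M21 (mm10), in which 54079 of 54232 identifiers were found. Log2 ratios used counts plus 0.5. The procedure was tested on simulated data.

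The members and lists were chosen with earlier results of these data known. Named genes are the S100 genes, Atp7b, Anxa1, Anxa2, called neighbours, the nearest profiles and list members of lowest p-value, of which only those a result turns on are given, with a few further list members named for their role. Replicates were numbered by accession and are unpaired. The 18 alternatives were other scalings, DESeq2 1.42.0, limma-voom (plain and quality-weighted), other filters, the number range as covariate, an adjusted p under 0.01 and leaving out each library.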

Additional observations from a re-analysis of the deposited data

Results flagged for a closer look

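Samples of each group were checked for 1 library that stood far from the other 3, over 26 groups of 4 values, and chance flags about 5% of such groups. All 7 flags fell on WT replicate 3. S100a1 read 234 CPM there, against 85.8 to 96.3 CPM in the other WT libraries. S100a9 read 3.68 CPM, against 0.704 to 0.860 CPM. S100a10 read 251 CPM, against 135 to 144 CPM, and S100a13 read 39.8 CPM, against 16.3 to 19.9 CPM. Anxa1 read 11.04 CPM, against 5.78 to 6.16 CPM, whereas Anxa2 was low, at 9.06 CPM against 19.5 to 21.6 CPM. The log2 ratio of S100a10 to Anxa2 was 4.78, against 2.67 to 2.88. S100a11, S100a6 and S100a16 gave no flag.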

How the results depend on the processing

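Over 18 alternatives, S100a8, S100a9, S100a6, S100a11, S100a10 and S100a1 kept their direction and their call. The S100a13 change was -0.58 with library totals only and uncalled, -1.06 and uncalled at an adjusted p under 0.01, and -1.20 to -0.70 when 1 library was left out. The number of S100 genes called lower was 1 in those first 2 settings and 1 to 2 with 1 library left out. S100a16 turned to 0.36 with library totals only, 0.033 with upper-quartile factors and 0.0013 with quality weights, and ranged from -0.20 to 0.044 with 1 library left out. The S100a8 to S100a9 ratio difference ranged from -0.26 to 0.37 with 1 library left out. Causes were not tested. Over all genes, 4746 were called, 8226 with quality weights, 8104 without WT replicate 3, 2872 at an adjusted p under 0.01, and the split of 2775 higher and 1971 lower was 4804 and 642 with library totals only. No paired analysis was possible because replicate numbers follow accession order. Of the fold changes of other named genes under these settings, 373 stayed on their side of the threshold and 41 lost a call. Without a filter 6 S100 genes were called higher, S100a14 being added, and S100a4 (adjusted p = 0.214) was not called. The depth limits these 2 genes most.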

Other observations

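Of the other 7 S100 genes in the table, 1 had enough counts to be tested. S100g, or calbindin-D9k, a vitamin D-regulated calcium buffer of intestine, had 56, 50, 59 and 76 counts in KO replicates 1 to 4 and 0, 0, 3 and 1 counts in WT replicates 1 to 4. Its log2 fold change was 5.31 ± 0.65 (SE; adjusted p = 1.67e-04, edgeR's quasi-likelihood test), and 6.88 without WT replicate 3. S100g passed the low-count filter through KO counts alone, which favours a call higher. The ratio of its summed CPM was 44.8, with a 95% interval from counting error alone of 17.3 to 166. S100b, a glial S100 protein, was not tested, with 53 counts over the KO libraries and 2 over the WT libraries, a 19.7-fold ratio (95% interval from counting error alone, 5.19 to 167). S100a7a, S100a2, S100a5 and S100z had at most 4 counts in either group, and S100a3 had none.

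The epidermal differentiation complex, which neighbours the S100 genes on chromosome 3, was mostly silent. Of its 18 listed genes, 5 had no count in any library and 3 were tested and called higher, Tchh, Tchhl1 and Sprr1a. Over all genes tested, 17.6% were called higher. Sprr1a, a cross-linked envelope protein, had 280 counts over the KO libraries and 0 over the WT libraries. Tchhl1 and Sprr1a, without a WT count, passed the low-count filter through KO counts alone. The 3 calls can therefore not be weighed against that share. The skin keratins Krt5, Krt14 and Krt1 had 2, 3 and 3 counts over the KO libraries and no WT count, and Krt10 was not called (-0.35), at 1.49 ± 0.460 CPM in KO and 2.01 ± 1.33 CPM in WT (SD, n = 4 each).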
